A study of Mus musculus with 6 samples.

Results

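The Wnt ligands, Frizzled receptors and their extracellular antagonists were examined in tibialis anterior muscle that lacked the clock factor BMAL1 in its fibres and received either a GFP or an RBM20 vector. A gene was a member if its mouse symbol was Wnt or Fzd followed by a number, or if it was one of Lrp5, Lrp6, Sfrp1, Sfrp2, Sfrp4, Sfrp5, Frzb, Dkk2, Dkk3, Wif1 and Axin2. This rule found 40 of the 55401 gene identifiers in the count table. They comprised 19 ligands, 12 receptors and co-receptors, 8 antagonists and the feedback target Axin2. RNA-seq libraries depleted of ribosomal RNA were available from 3 AAV-GFP and 3 AAV-RBM20 muscles of C57BL/6 mice that were 12 to 16 weeks old when tamoxifen was started.

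Every mouse, controls included, had the genotype HSA-MCM-Bmal1-/-. In this model a tamoxifen-inducible Cre is driven by the human skeletal actin promoter, so recombination is directed to muscle fibres and the other cells of the muscle keep Bmal1. Tamoxifen was given at 2 mg per day for 5 days, the vector was injected throughout the muscle 4 weeks later, and the muscle was collected after another 4 weeks. The adeno-associated virus (AAV) carried mouse Rbm20 under the CMV promoter, which is not restricted to fibres, and more of it was injected than of the GFP vector. The effects of dose and of transgene cannot be told apart, and no muscle with intact Bmal1 was analysed here. The labels do not say whether the muscles of a group came from different mice, so the p-values measure only the spread between these samples.

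Wnt proteins are secreted, lipid-modified signals that bind Frizzled receptors on the cell surface. With the co-receptors LRP5 and LRP6 they stabilise beta-catenin, which acts with TCF/LEF factors on target genes such as Axin2, while other Wnt signals act through Frizzleds without beta-catenin. Secreted Frizzled-related proteins (Sfrp genes and Frzb) and WIF1 bind Wnts, and DKK2 binds the LRP co-receptors. In skeletal muscle the pathway is known for roles in myogenesis, satellite cells, fibre type and the neuromuscular junction.

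Rbm20, the gene carried by the vector, was measured at 170, 165 and 164 CPM (TMM-scaled counts per unit of library size) in AAV-GFP and at 499, 545 and 406 CPM in AAV-RBM20. The library labels therefore matched the transgene in 6 of 6 libraries, with a 2.91-fold difference, though reads of the vector and of the resident gene cannot be told apart. Total counts ranged from 41400132 to 54226618 per library. The libraries numbered 3 stood apart from the others in both groups. Ttn took 4.48% of the AAV-GFP replicate 3 counts and 9.05% of the AAV-RBM20 replicate 3 counts, against 16.9% to 17.8% in the other libraries, and mitochondrially encoded genes took 12.5% and 11.4% against 6.41% to 7.66%. All 12 myofibre markers were detected at levels that passed the filter. Of the 6 keratinocyte markers 1 passed it, and they summed to 0.910 to 1.44 CPM in AAV-GFP and 0.535 to 1.34 CPM in AAV-RBM20. Within that list Krt5 and Krt14 were at or below 0.041 CPM in every library.

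Of the 40 members, 28 passed the low-count filter and are called expressed here, beside 17222 of all 55401 genes. All 12 receptors, the 8 antagonists named in the rule and Axin2 were expressed. That list of antagonists is not complete. Of 8 further genes listed as other extracellular antagonists, 3 passed the filter, and Dkk1, Dkk4, Sost and Sostdc1 did not. Only 7 of the 19 ligands were expressed, namely Wnt4, Wnt9a, Wnt11, Wnt5a, Wnt5b, Wnt10b and Wnt6. No count was recorded in any library for Wnt3a, Wnt8a and Wnt8b. The remaining 9 ligands (Wnt16, Wnt2b, Wnt2, Wnt9b, Wnt10a, Wnt7b, Wnt3, Wnt1 and Wnt7a) had at most 26 counts in a library and a mean of at most 0.181 TPM, a scale that divides counts by merged exon length. A group difference in these 12 ligands was not detectable at this depth.

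On the TPM scale the most abundant expressed members were receptors. Fzd7 averaged 48.8 TPM over the 6 libraries, the co-receptor Lrp6 39.4 TPM and Fzd4 37.3 TPM. Over both groups their ranges of 38.1 to 53.7, 32.4 to 43.1 and 23.2 to 54.9 TPM overlapped. Within AAV-GFP they were separate, at 47.6 to 53.7, 32.4 to 38.7 and 23.2 to 29.7 TPM, while within AAV-RBM20 they overlapped. Lrp6 came before Fzd7 when the longest transcript was used as the length, so the order of that pair was not resolved. Lrp5 (17.2 TPM) and Fzd9 (15.2 TPM) followed with overlapping ranges. The next receptors, from Fzd6 at 4.83 TPM through Fzd8, Fzd1, Fzd5, Fzd2 and Fzd10, were lower, and Fzd3 was lowest at 0.322 TPM. Among the ligands Wnt4 averaged 13.9 TPM and Wnt9a 13.4 TPM, and their ranges overlapped, while Wnt11 averaged 5.68 TPM. Wnt5a and Wnt5b averaged 2.78 and 2.63 TPM, and Wnt10b and Wnt6 0.680 and 0.491 TPM. The antagonists were low throughout, from 5.08 TPM for Frzb to 0.408 TPM for Wif1, with wide ranges between libraries. Axin2 averaged 6.80 TPM.

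**Figure D1:**
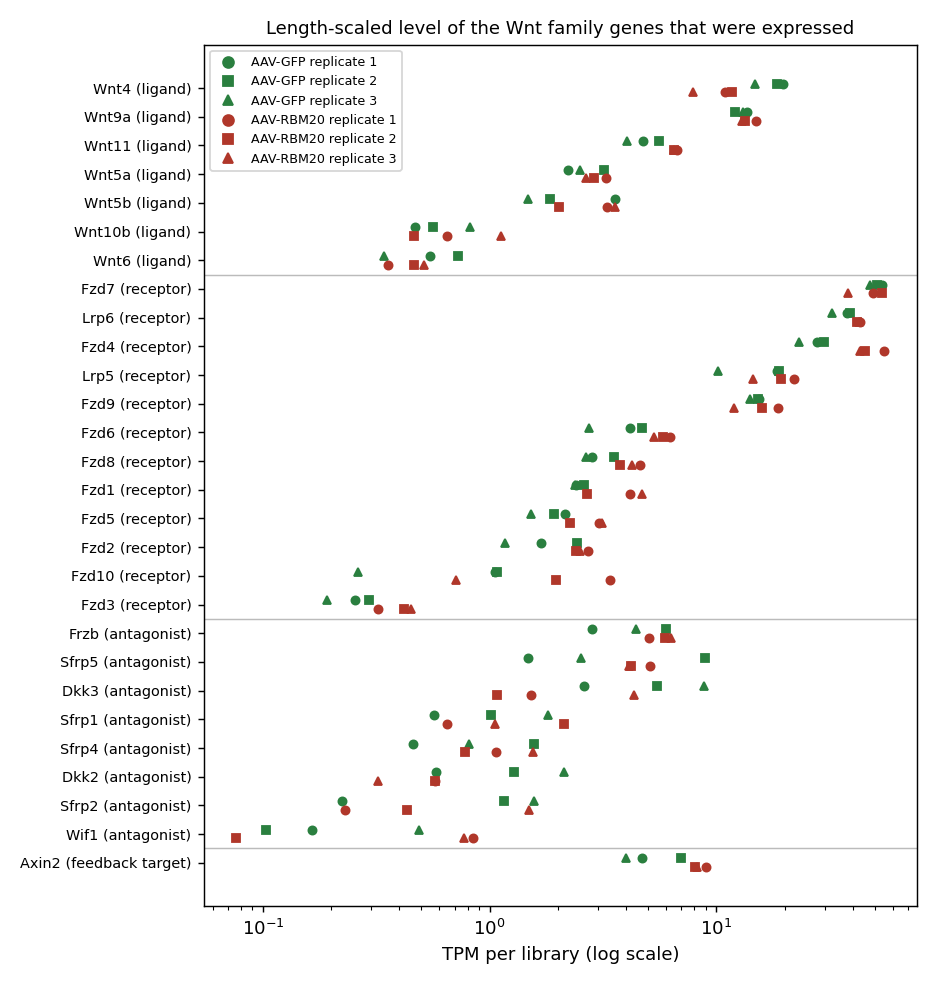
Level of each expressed member in TPM on a log axis, one symbol per library, with green for AAV-GFP and red for AAV-RBM20 and the symbol shape giving the replicate number. Fzd7, Lrp6 and Fzd4 had the highest means, and libraries of one group spread widely for Dkk3, Sfrp5, Sfrp2, Wif1 and the receptor Fzd10.

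In the comparison of AAV-RBM20 with AAV-GFP the ligand Wnt4 was lower, with a fitted fold of 0.489, Fzd4 was higher and Fzd7 lower, the antagonists Dkk2 and Dkk3 were lower, and Axin2 was higher. By edgeR's quasi-likelihood test with no covariate, none of the 28 expressed members had an adjusted p below 0.05. The share over all 17222 genes was also 0%. In that test Rbm20, the gene carried by the vector, missed the threshold too (fold 2.91, adjusted p = 0.121). Missing it therefore does not show that a gene was unchanged. By DESeq2 2 members passed, against 0.435% of all genes, and by limma-voom 0. At an unadjusted p under 0.05 there were 6 members of 28, among all genes tested 7.90%. Of the 6, 2 were higher in AAV-RBM20 (Fzd4 and Axin2) and 4 were lower (Wnt4, Dkk2, Dkk3 and Fzd7). The count of 6 became 3 without AAV-RBM20 replicate 1, where the share over all genes was not computed. With the replicate number as a block, a design in which same-numbered libraries are compared with each other, 1 member fell, Wnt4, against 0.145% of all genes, and 8 members had an unadjusted p under 0.05, against 18.8% of all genes.

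Every AAV-RBM20 library lay above every AAV-GFP library for 4 members, Fzd4, Axin2, Wnt11 and Fzd6, a pattern shown by 7.71% of all genes tested. The groups were separated in the other direction for 3 members, Wnt4, Fzd7 and Dkk2, against 9.04% of all genes. The 28 fitted log2 fold changes comprised 16 positive and 12 negative values with a median of 0.03, beside 0.01 over all genes tested. By role the median was -0.09 for the 7 ligands, 0.35 for the 12 receptors and -0.12 for the 8 antagonists, and with the replicate block it was -0.08, 0.36 and 0.02. The medians are descriptions of lists and carry no test.

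**Figure D2:**
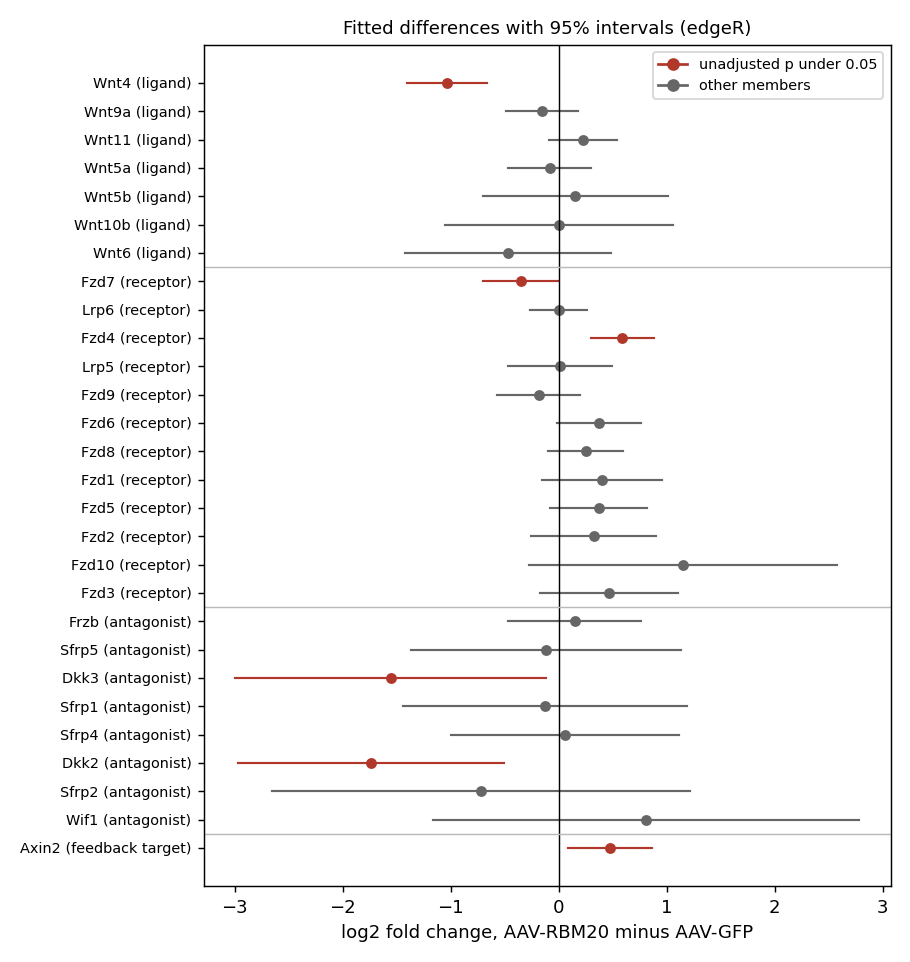
Fitted log2 fold change of AAV-RBM20 against AAV-GFP for the 28 expressed members, grouped by role, with bars for the 95% interval and red for an unadjusted p under 0.05. The intervals of Wnt4, Fzd7, Dkk3 and Dkk2 lie below 0 and those of Fzd4 and Axin2 above it, and 9 of the 12 receptors have positive values, with Lrp6 near 0 and turning positive with upper quartile factors.

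The sequences just before the starts of these members are shown because the rule did not use them. They are the bases upstream of both the RefSeq and the GENCODE start, from RefSeq's promoter table on GRCm38.p6, in lower case, with matches on either strand to the TCF/LEF letters in capitals, which were CTTTGAA and its variants CTTTGAT with CTTTGTA and also CTTTGTT. Dkk3 had no entry.
Wnt4, chr4:137277385-137277488, plus strand: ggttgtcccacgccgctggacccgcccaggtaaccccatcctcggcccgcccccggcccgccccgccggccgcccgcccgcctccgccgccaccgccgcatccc
Fzd4, chr7:89404116-89404354, plus strand: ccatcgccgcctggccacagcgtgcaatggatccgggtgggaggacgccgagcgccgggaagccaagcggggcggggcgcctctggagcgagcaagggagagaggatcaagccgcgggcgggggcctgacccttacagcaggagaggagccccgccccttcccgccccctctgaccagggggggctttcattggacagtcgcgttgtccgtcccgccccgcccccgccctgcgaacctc
Fzd7, chr1:59481897-59482146, plus strand: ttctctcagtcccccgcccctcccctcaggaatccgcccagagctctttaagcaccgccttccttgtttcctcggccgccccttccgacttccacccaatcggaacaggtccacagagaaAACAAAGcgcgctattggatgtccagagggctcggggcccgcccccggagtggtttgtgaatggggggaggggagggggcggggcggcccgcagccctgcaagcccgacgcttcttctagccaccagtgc
Dkk2, chr3:132085042-132085291, plus strand: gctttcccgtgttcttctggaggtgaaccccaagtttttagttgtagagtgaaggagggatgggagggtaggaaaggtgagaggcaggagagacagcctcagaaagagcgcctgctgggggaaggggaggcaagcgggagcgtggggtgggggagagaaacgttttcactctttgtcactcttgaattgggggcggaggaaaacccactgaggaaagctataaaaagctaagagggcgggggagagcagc
Axin2, chr11:108920099-108920348, plus strand: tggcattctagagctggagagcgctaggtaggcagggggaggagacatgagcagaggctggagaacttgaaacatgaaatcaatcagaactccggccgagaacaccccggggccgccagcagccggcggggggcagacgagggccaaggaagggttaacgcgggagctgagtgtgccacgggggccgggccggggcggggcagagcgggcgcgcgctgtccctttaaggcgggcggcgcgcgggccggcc
The only match in these 5 sequences was AACAAAG in Fzd7, starting 130 bases before the end of the stretch. Among the 30 RefSeq promoters listed for 27 of the 40 members, 4 held such a match (Fzd7, Wnt11, Wnt3 and Wnt5b), beside 16.9% of the 32851 promoters in the table. The E-box CACGTG, the sequence known to be bound by BMAL1 with CLOCK, was present in 3 of the 30 (Fzd9, Wif1 and Wnt9a), beside 7.15% of all promoters. The 2 sets of letters cannot overlap each other. A match describes letters only, and promoter activity was not measured. The GC content was 83.7% in the Wnt4 stretch, 72.8% for Fzd4, 69.2% for Axin2, 65.2% for Fzd7 and 55.6% for Dkk2.

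Wnt4 (ENSMUSG00000036856, chr4:137277489-137299726, GRCm38) encodes a ligand best known for development of the kidney and reproductive tract that is also expressed in muscle fibres. It was at 25.4, 22.2 and 22.1 CPM in AAV-GFP and at 11.8, 13.1 and 9.14 CPM in AAV-RBM20, in the order of replicates 1 to 3. All AAV-RBM20 libraries lay below all AAV-GFP libraries, and the lowest was AAV-RBM20 replicate 3. The means were 23.2 ± 1.88 and 11.4 ± 2.03 CPM (SD, n = 3 each), a log2 fold change of -1.03 (SE 0.16, 95% interval -1.40 to -0.66). The unadjusted p was 0.000214 and the adjusted p 0.405 by edgeR's quasi-likelihood test. With the replicate block Wnt4 fell by 1.05 on the log2 scale (SE 0.12, adjusted p = 0.0353). Over all alternatives its log2 fold change stayed between -1.20 and -0.89, and the adjusted p passed 0.05 in 5 of 18 of them.

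Wnt9a, a ligand known from joint and haematopoietic development, was at 14.0, 11.5 and 15.5 CPM in AAV-GFP and 12.9, 12.0 and 11.9 CPM in AAV-RBM20. The groups overlapped, and the log2 fold change was -0.16 (SE 0.14, 95% interval -0.49 to 0.18, unadjusted p = 0.305). Wnt11, a ligand of cell movement and polarity, was at 6.05, 6.66 and 5.89 CPM in AAV-GFP and 7.17, 7.19 and 7.41 CPM in AAV-RBM20. All AAV-RBM20 values were higher, by 0.23 on the log2 scale (SE 0.14), with an unadjusted p of 0.136.

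The balance of ligands within a library does not depend on the scaling between libraries. Wnt4 took 43.3%, 42.2% and 39.6% of the summed ligand TPM in AAV-GFP, against 26.5%, 30.7% and 21.9% in AAV-RBM20. Wnt11 took 10.5%, 12.8% and 10.7% in AAV-GFP, against 16.4%, 17.0% and 18.0% in AAV-RBM20, and Wnt9a took 27.6% to 35.0% and 35.3% to 36.6%. Wnt4 thus had the largest ligand share in each AAV-GFP library and Wnt9a in each AAV-RBM20 library. These shares were chosen after the values were seen and are given without a test. They are parts of a whole, so a lower Wnt4 share by itself raises the others. The fitted log2 fold changes were -0.16 for Wnt9a and 0.23 for Wnt11.

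The other expressed ligands did not separate the groups. Wnt5a and Wnt5b, best known for signals that do not use beta-catenin, had log2 fold changes of -0.09 and 0.15. Wnt10b, known to hold back adipocyte formation, was at 0.423 to 1.05 CPM with a log2 fold change of 0.00, and Wnt6 at 0.202 to 0.455 CPM with -0.47. The 95% intervals of these 4 genes ran from -0.47 to 0.30 for Wnt5a and at most from -1.43 to 1.06 for the others.

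**Figure D3:**
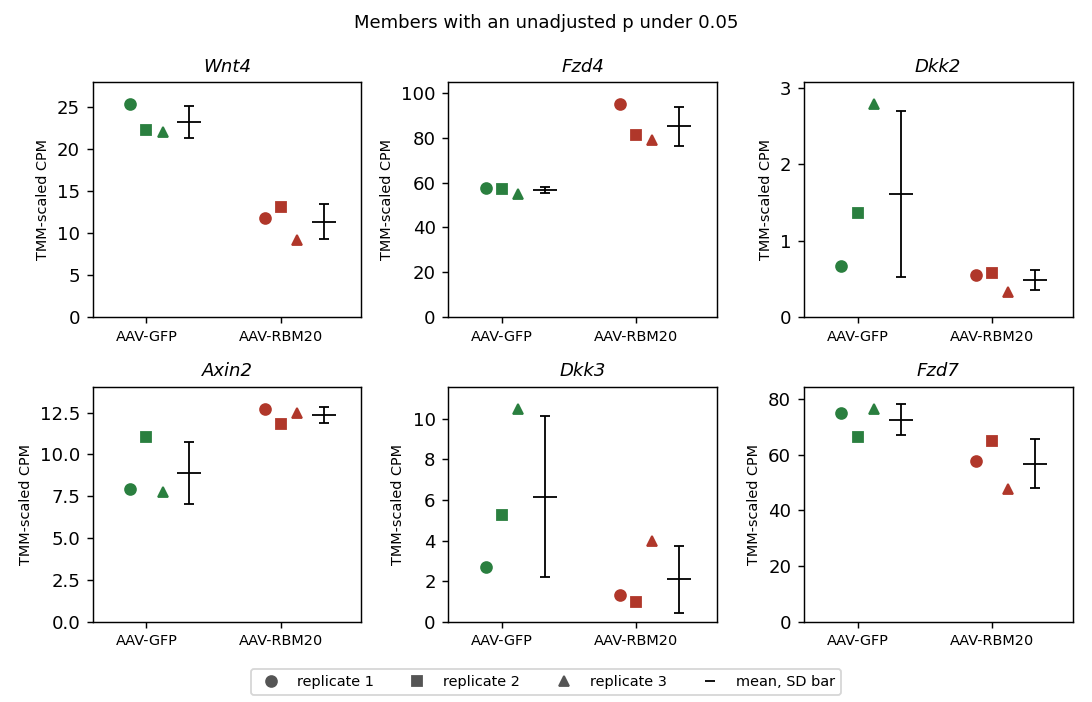
TMM-scaled CPM in each library for the 6 members with an unadjusted p under 0.05, with the group mean and SD as a bar beside the points and axes that start at 0. The groups are separate for Wnt4, Fzd4, Dkk2, Axin2 and Fzd7 and overlap for Dkk3, where AAV-RBM20 replicate 3 at 3.99 CPM exceeds AAV-GFP replicate 1 at 2.71 CPM.

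Fzd4 (ENSMUSG00000049791, chr7:89404355-89413134) encodes a receptor for Wnts and for Norrin that is known for its role in blood vessels. Its level was 57.6, 57.4 and 55.2 CPM in AAV-GFP and 95.3, 81.4 and 79.3 CPM in AAV-RBM20. The AAV-GFP values lay close together and below all 3 AAV-RBM20 values. The means were 56.7 ± 1.36 and 85.3 ± 8.74 CPM (SD, n = 3 each), and the fitted fold change was 1.50 (95% interval 1.23 to 1.84). On the log2 scale this was 0.59 (SE 0.13), with an unadjusted p of 0.00156 and an adjusted p of 0.571 by edgeR's quasi-likelihood test. The adjusted p was 0.0682 with the replicate block and 0.00931 by DESeq2.

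The 8 endothelial markers summed to 451, 515 and 210 CPM in AAV-GFP and 485, 454 and 327 CPM in AAV-RBM20. These ranges overlapped, 0 of the 8 passed any threshold, and their median log2 fold change was 0.13. In whole muscle, fewer cells of a type and less RNA per cell cannot be told apart.

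Fzd7 (ENSMUSG00000041075, chr1:59482424-59486955), a receptor of satellite cells and fibres, was at 74.8, 66.3 and 76.5 CPM in AAV-GFP and 57.7, 65.0 and 47.6 CPM in AAV-RBM20. The groups were separate by a small margin, between 66.3 and 65.0 CPM. The log2 fold change was -0.35 (SE 0.15, 95% interval -0.70 to -0.01), with an unadjusted p of 0.0455 and an adjusted p of 0.618 by edgeR's quasi-likelihood test. It was -0.20 with both libraries numbered 3 left out.

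Within each library, the ratio of Fzd4 to Fzd7 in TPM was 0.519, 0.583 and 0.486 in AAV-GFP, against 1.11, 0.845 and 1.12 in AAV-RBM20, a ratio chosen after the values were seen and given without a test. The 6 satellite cell markers summed to 73.3 to 80.1 CPM in AAV-GFP and 57.4 to 66.4 CPM in AAV-RBM20, with 0 past the adjusted threshold. The 2 most abundant, Sdc4 and Cdh15, were lower at an unadjusted p under 0.05, while the other 4 (Pax7, Myf5, Calcr and Vcam1) had positive values and the median over the 6 was 0.12. Their part in the Fzd7 values was not tested.

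Lrp6, the main Wnt co-receptor in this muscle by TPM, was at 158, 152 and 157 CPM in AAV-GFP and 152, 153 and 161 CPM in AAV-RBM20. The groups overlapped almost completely, and the 95% interval of the log2 fold change was -0.26 to 0.26. Lrp5 was at 55.5, 52.9 and 35.1 CPM in AAV-GFP and 55.4, 50.3 and 39.0 CPM in AAV-RBM20, so that the low values were those of the libraries numbered 3 and the log2 fold change was 0.01.

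The remaining receptors were mostly higher in AAV-RBM20, and 0 of them passed the adjusted threshold. Fzd6, named after its values were seen because its groups did not overlap, was at 6.15, 6.49 and 4.69 CPM in AAV-GFP and 7.79, 7.51 and 7.06 CPM in AAV-RBM20, with a log2 fold change of 0.37 and an unadjusted p of 0.0600. The log2 fold changes of Fzd8, Fzd1, Fzd5, Fzd2 and Fzd3 lay between 0.25 and 0.47. Fzd10 had the largest receptor fold change, 1.15 (SE 0.62), from 1.06, 1.01 and 0.304 CPM in AAV-GFP and 2.86, 1.72 and 0.638 CPM in AAV-RBM20. It was higher in 3 of 3 same-numbered pairs, but the groups overlapped and the unadjusted p was 0.0993. Fzd9 was at 7.58 to 11.4 CPM with a log2 fold change of -0.18.

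Dkk2 (ENSMUSG00000028031, chr3:132085292-132180304) encodes a ligand of LRP5 and LRP6 that can block Wnt signals. It was at 0.664, 1.37 and 2.79 CPM in AAV-GFP and 0.550, 0.572 and 0.329 CPM in AAV-RBM20. The AAV-GFP libraries differed widely from each other, and the lowest of them was only just above the highest AAV-RBM20 library. The log2 fold change was -1.74 (SE 0.53, 95% interval -2.97 to -0.50), with an unadjusted p of 0.0117 and an adjusted p of 0.618 by edgeR's quasi-likelihood test. It was -1.07 without AAV-GFP replicate 3, the library with the highest value, and -0.85 with both libraries numbered 3 left out.

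Dkk3 (ENSMUSG00000030772, chr7:112116017-112159057), a divergent relative whose action on Wnt signals is unsettled, was at 2.71, 5.27 and 10.5 CPM in AAV-GFP and 1.32, 0.970 and 3.99 CPM in AAV-RBM20. It was lower in 3 of 3 same-numbered pairs although the groups overlapped. The fitted difference was -1.56 on the log2 scale (SE 0.62), with an unadjusted p of 0.0375, and with the replicate block it was -1.59 (SE 0.26) with an adjusted p of 0.0770 by edgeR's quasi-likelihood test. Leaving out AAV-GFP replicate 3 gave -0.93 and leaving out AAV-RBM20 replicate 3 gave -2.41. With both libraries numbered 3 left out the adjusted p was 0.0355 and Dkk3 fell.

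The sum of 6 adipocyte markers had the same order as Dkk2 and Dkk3 within AAV-GFP, at 0.295, 4.91 and 14.4 CPM, and was 0.935, 1.97 and 8.65 CPM in AAV-RBM20. Adipoq, a defining marker, had no count in replicate 1 of either group. Of the 6 adipocyte markers 4 were tested, 0 passed a threshold and their median log2 fold change was -0.61. A highest sum in AAV-GFP replicate 3 was not particular to adipocyte markers. In AAV-GFP, macrophage markers summed to 33.4, 30.9 and 109 CPM in replicates 1 to 3. Markers of fibro-adipogenic progenitors, connective tissue cells of muscle, summed to 967, 867 and 1873 CPM. The sums of the remaining marker lists were not highest in that library. The part of adipocyte RNA in the Dkk values was not tested.

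**Figure D4:**
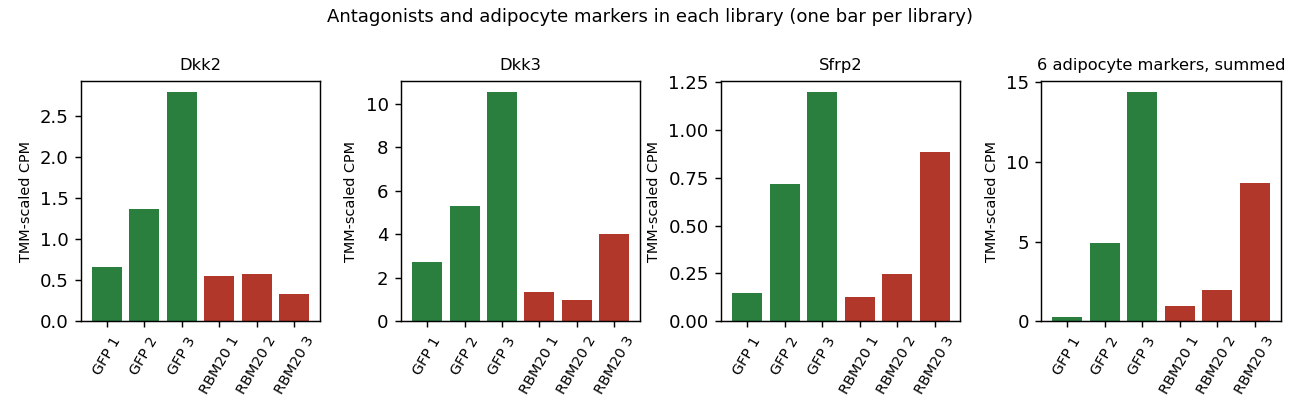
TMM-scaled CPM of Dkk2, Dkk3 and Sfrp2 and the summed CPM of the 6 adipocyte markers, one bar per library with axes that start at 0. In AAV-GFP all 4 panels rank replicate 3 first and replicate 1 last, and in AAV-RBM20 replicate 3 is highest for Dkk3, Sfrp2 and the markers but lowest for Dkk2.

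Frzb, a secreted Frizzled-related protein known from cartilage, was at 2.83, 5.56 and 5.09 CPM in AAV-GFP and 4.23, 5.12 and 5.60 CPM in AAV-RBM20. The groups overlapped, with a log2 fold change of 0.15 (SE 0.27). Sfrp5 was at 0.861, 4.84 and 1.71 CPM in AAV-GFP and 2.51, 2.14 and 2.16 CPM in AAV-RBM20. The AAV-RBM20 libraries lay close together inside the AAV-GFP range, and the log2 fold change of -0.12 (SE 0.54) became 0.81 without AAV-GFP replicate 2. That library also had the highest sum of the 9 Schwann cell and perineurium markers, 71.2 CPM against 34.6 to 61.1 CPM in the others. In AAV-RBM20 the marker sum was highest in replicate 2, at 61.1 CPM, where Sfrp5 was lowest of that group. The part of these markers in the Sfrp5 values was not tested. Sfrp1, Sfrp4, Sfrp2 and Wif1 were each at or below 2.81 CPM with overlapping groups and standard errors of 0.46 to 0.85 on the log2 scale, so that a difference was not detectable at this depth and spread.

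Axin2 (ENSMUSG00000000142, chr11:108920349-108950783) encodes a scaffold of the beta-catenin destruction complex and is itself a target of beta-catenin with TCF/LEF. It was at 7.92, 11.0 and 7.77 CPM in AAV-GFP and 12.7, 11.8 and 12.5 CPM in AAV-RBM20. The AAV-RBM20 values were all higher, and AAV-GFP replicate 2 came closest to them. The means were 8.91 ± 1.85 and 12.4 ± 0.478 CPM (SD, n = 3 each), a log2 fold change of 0.47 (SE 0.17, 95% interval 0.08 to 0.86). The unadjusted p was 0.0231 and the adjusted p 0.618 by edgeR's quasi-likelihood test, and it was 0.166 with the replicate block.

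Axin2 was one of 7 members whose exons overlap a gene on the other strand, with Wnt11, Wnt5a, Wnt7b, Fzd6, Fzd5 and Sfrp2. Whether the authors' counting used strand is not given in the sources used here, so the values of these 7 are uncertain to that extent.

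**Figure D5:**
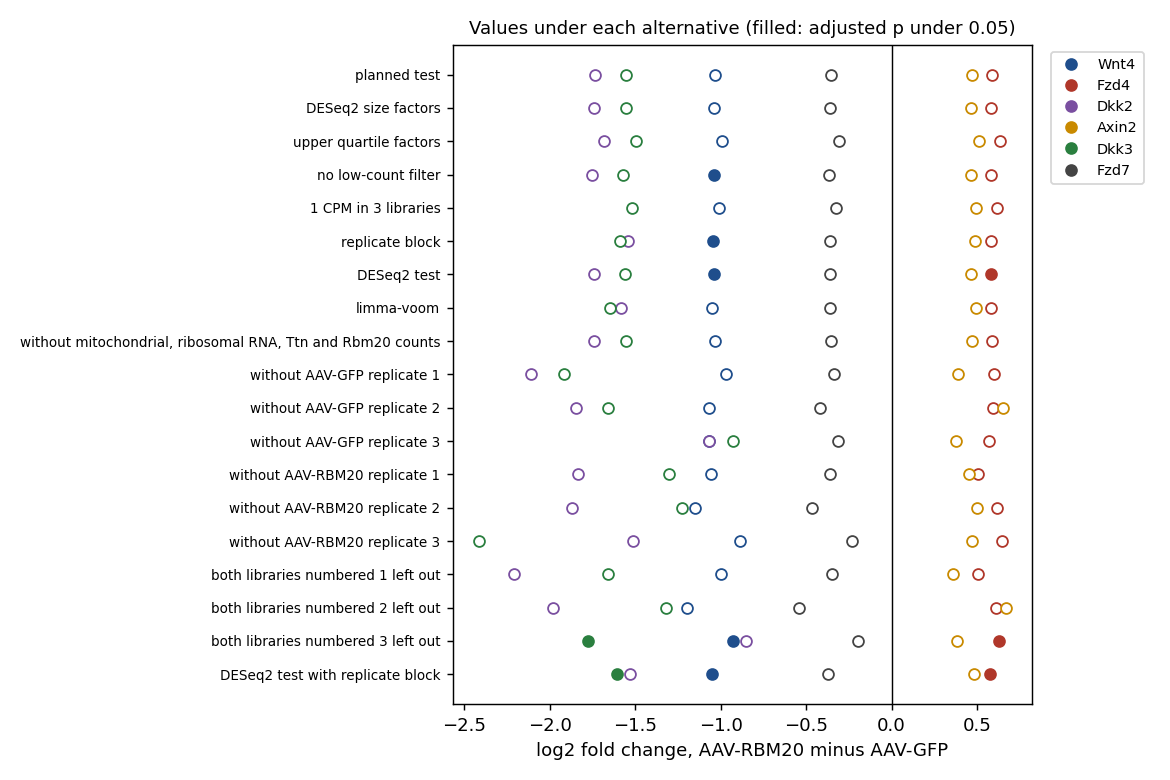
Log2 fold change of the 6 members with an unadjusted p under 0.05 under edgeR's test as planned and under each of the 18 alternatives, with filled circles for an adjusted p under 0.05. Signs stay the same wherever a value exists (Dkk2 has none with the 1 CPM filter), Wnt4 is filled in 5 alternatives, Fzd4 in 3 and Dkk3 in 2, and the Dkk2 and Dkk3 values spread most.

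The calls differed between alternatives. Wnt4 alone passed an adjusted p of 0.05 when no low-count filter was used (0.0269% of all genes). Wnt4 and Fzd4 passed by DESeq2, and Wnt4, Fzd4 and Dkk3 passed by DESeq2 with the replicate block (3.02%). These 3 also passed edgeR's test with both libraries numbered 3 left out, where 4.00% of all genes did.

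Of 71 other Wnt pathway genes, 58 were expressed and 0 passed the adjusted threshold in edgeR's quasi-likelihood test, with or without the replicate block, or by DESeq2 and limma-voom. At an unadjusted p under 0.05 there were 3 higher and 1 lower in AAV-RBM20, beside 4.08% of all genes higher and 3.82% lower, so their number was near the share over all genes. The median log2 fold change was -0.04. With both libraries numbered 3 left out, 3 passed the adjusted threshold, beside 4.00% of all genes. They were Wls at 0.45, Gpc4 at -0.31 and Tnks2 at -0.26 on the log2 scale, the first pair named after their values were seen. Ptk7, a receptor-like protein of planar cell polarity, had a log2 fold change of 0.73 (SE 0.28), with 0.836 to 1.27 CPM in AAV-GFP and 1.39 to 1.87 CPM in AAV-RBM20. Tle3, a co-repressor that binds TCF/LEF factors, was at 10.7 to 14.0 CPM in AAV-GFP and 15.8 to 18.6 CPM in AAV-RBM20, with 0.44. Tnfrsf19, a reported target of beta-catenin, was at 18.0 to 24.4 CPM and 25.6 to 28.2 CPM, with 0.37. Tnks2, a tankyrase that marks axin for destruction, was at 303 to 360 CPM in AAV-GFP and 256 to 279 CPM in AAV-RBM20, with -0.30. All 4 had separate groups, and their adjusted p was 0.618 to 0.632 by edgeR's quasi-likelihood test. Among the 58 the groups were separate for 4 genes higher in AAV-RBM20, beside 7.71% of all genes. They were separate for 6 genes lower in AAV-RBM20, beside 9.04% of all genes.

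By group of pathway genes, 2 of 5 tested genes of ligand processing and release, 1 of 5 of the R-spondin system, 2 of 3 other antagonists and 3 of 15 of the cytoplasmic core had positive values. So did 7 of 13 nuclear factors, 2 of 5 transcriptional targets and 9 of 12 noncanonical receptors and polarity genes. The 5 targets, apart from Axin2, had log2 fold changes of 0.39 for Ccnd1, 0.37 for Tnfrsf19, -0.33 for Nkd2, -0.50 for Nkd1 and -0.58 for Myc, and 0 of them passed the adjusted threshold.

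Values of marker lists for other cell types and for fibre state are given beside the members, and their part in the member values was not tested. In all 6 libraries no marker passed the adjusted threshold in edgeR's quasi-likelihood test with no covariate. The 12 myofibre markers had sums that did not overlap, 100104 to 109379 CPM in AAV-GFP and 64881 to 96069 CPM in AAV-RBM20. They had 4 positive values with a median of -0.37. At an unadjusted p under 0.05 there were 2 lower, beside 3.82% of all genes. The groups were separate for 3 lower in AAV-RBM20, beside 9.04% of all genes. The 10 macrophage markers had 10 positive values with a median of 0.80, and overlapping sums of 30.9 to 109 CPM and 70.0 to 153 CPM. The 12 markers of fibro-adipogenic progenitors, the connective tissue cells of muscle, had 10 positive values and overlapping sums of 867 to 1873 CPM and 1437 to 1668 CPM. With both libraries numbered 3 left out, 8 of the macrophage markers and 8 of the fibro-adipogenic markers rose with Runx1 and Ncam1 of the denervation list (4.00% of all genes passed), and Tnnt3 of the myofibre list fell with the satellite cell markers Sdc4 and Cdh15. Of 10 tested genes of the denervation response, 4 were higher at an unadjusted p under 0.05, beside 4.08% of all genes. Runx1 of that list rose with the replicate block (adjusted p = 0.0271 by edgeR's quasi-likelihood test), where 0.145% of all genes passed.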

How the data were processed

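Samples were grouped from the labels into AAV-GFP (n = 3) and AAV-RBM20 (n = 3), and replicate numbers were taken from the titles. Read pairs were aligned by the authors to mm10 (HISAT2) and assigned to genes (HTSeq), per the submitters' processing notes and the study's methods. The deposited table holds raw counts per Ensembl gene, which the authors had not normalised. Versions, annotation release and strand setting are not given in the sources used here. A second deposited table, normalised with DESeq2, was not used. Columns with no sample numbered 0.

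Symbols, GRCm38 positions and merged exon lengths came from GENCODE M21, which held 55141 of the 55401 identifiers. Genes were filtered with filterByExpr (minimum count 10), which left 17222, and scaled with TMM. Groups were compared with edgeR 4.0.16 in R 4.3.3 by the robust quasi-likelihood test with no covariate, two-sided, with Benjamini-Hochberg adjustment over all genes tested and a threshold of 0.05. The SE of a log2 fold change was its absolute value over the root of F. An exact permutation test of single genes cannot go below 0.1 with 3 against 3 samples. TPM was computed from the counts and merged lengths. Replicate libraries differed by 15.1 to 545 chi-square per degree of freedom, so none was a copy of another.

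Deviations from the group means correlated at 0.42, 0.20 and 0.48 between libraries of the same number. Each was above 0.1, the level set for reading the numbers as pairing the libraries. With the numbers 1 and 2 exchanged, the correlations of 0.13 and 0.22 were also above 0.1. The check therefore cannot decide how those libraries pair. Libraries of different numbers correlated at -0.42 to 0.22, and AAV-GFP replicate 2 was as close to AAV-RBM20 replicate 1 (0.22) as to replicate 2, so the numbers 1 and 2 were not separated from each other. The descriptions number the AAV-RBM20 samples differently from the titles, and no label says what a number marks. The study's blot lanes for this experiment in some cases give the same number to a GFP muscle marked R and an Rbm20 muscle marked L. Those lanes are not linked to the libraries, so whether any libraries share a mouse is not known. Alternatives were other scalings and filters, the replicate block, DESeq2 1.42.0, limma-voom 3.58.1, removal of mitochondrial, ribosomal RNA, Ttn and Rbm20 counts, and leaving out libraries. DESeq2 with the replicate block was added after the data were seen.

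Values in every library were given for members with an unadjusted p under 0.05 or an adjusted p under 0.05 with the block, for the 3 highest members by TPM in each role, and for Axin2. Of the other pathway genes, up to 6 with an unadjusted p under 0.05 were named by size. Members and lists were chosen with earlier results of these data known. Promoter sequences came from RefSeq (GRCm38.p6), and overlap of genes was read from GENCODE.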

Additional observations from a re-analysis of the deposited data

How the results depend on the processing

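No member passed an adjusted p of 0.05 in the test as planned, beside 0% of all genes. The count was 1 with no low-count filter (0.0269% of all genes) and 1 with the replicate block (0.145%). It was 2 by DESeq2 (0.435%) and 3 by DESeq2 with the replicate block (3.02%). After dropping both libraries numbered 3 it was 3 (4.00%). Of the other pathway genes, 3 passed with both libraries numbered 3 left out (beside 4.00% of all genes), against 0 otherwise. Leaving out 1 library gave 0 members past the adjusted threshold each time, 3 to 7 members at an unadjusted p under 0.05 (3 without AAV-RBM20 replicate 1) and 8 to 12 members with separate groups in place of 7. With fewer libraries, separation is easier, and it reached 13 after dropping both libraries numbered 1 and 16 after dropping both numbered 2. The shares of all genes with separate groups or an unadjusted p under 0.05 were not computed for these reduced sets. These counts therefore cannot be read as a result about the members. The median log2 fold change of the members tested, 0.03, was 0.13 with at least 1 CPM in 3 libraries, 0.16 with the replicate block, 0.16 by limma-voom, 0.22 after dropping both libraries numbered 2 and 0.16 by DESeq2 with the replicate block, and -0.0463 to 0.183 with 1 library left out. The cause of these shifts was not tested.

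For the 11 members named by the rule, 197 values under 18 alternatives held 13 changes of sign, in Lrp6, Frzb and Sfrp5. Over all 28 expressed members the sign changed at least once in 10, the others being Wnt5a, Wnt5b, Wnt10b, Lrp5, Fzd9, Sfrp1 and Sfrp4. In edgeR's quasi-likelihood test the replicate block changed the call of Wnt4 only among the 28, and in DESeq2 it added Dkk3 (adjusted p = 0.292 without and 1.53e-05 with the block). Lrp6 became 0.0437 with upper quartile factors, 0.0258 with the 1 CPM filter and 0.0191 after dropping both libraries numbered 1, and ran from -0.0216 to 0.0195 with 1 library left out. Frzb ran from -0.10 (without AAV-GFP replicate 1) to 0.32 with 1 library left out. Sfrp5 became 0.18 with the replicate block, 0.24 by limma-voom, 0.84 after dropping both libraries numbered 2 and 0.21 by DESeq2 with the replicate block, and ran from -0.52 to 0.81 with 1 library left out. Levels per length moved in 4 of 28 members with the longest transcript.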
